A study of Vitis vinifera with 12 samples.

Results

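CARPO, also called NAC60, is a grapevine (Vitis vinifera) transcription factor of the NAC family, and its binding to genomic DNA was mapped by DNA affinity purification sequencing (DAP-seq). The sites described here are CARPO events from leaf DNA that had no counterpart in the lists of the other NAC factors, NAC33 and NAC03, and no counterpart in a further CARPO list whose sample title carries 1000 in place of 500. They were chosen by the positions of listed events, from the CARPO list labelled 500 on leaf DNA, by requiring that no event lay within 100 bp in the NAC33 list labelled 500, the NAC03 list or the CARPO list labelled 1000, all on leaf DNA, and by leaving out the sequence named chr00. This gave 6490 of the 14786 events of that list, out of 44889 events in the 7 lists of the series. They are called the CARPO-only sites absent at 1000. The remaining 4335 CARPO-only sites, which did have a CARPO event labelled 1000 within 100 bp, are called the recurring CARPO-only sites and serve as the nearest comparison.

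NAC proteins are a plant-specific family that binds DNA through a conserved N-terminal domain, usually as dimers. Members are known for roles in organ formation, senescence, stress responses and fruit ripening, and the title of the series places CARPO in organ maturation and the start of ripening in grapevine. DAP-seq uses naked genomic DNA and a protein made outside the cell, so it reads which fragments the factor can retain and not where it sits in a nucleus.

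All libraries used DNA of the cultivar Syrah and a HALO-tagged protein made in rabbit reticulocyte lysate. The CARPO list labelled 500 and the CARPO list labelled 1000 used young leaf DNA, and the CARPO berry list carries 500 and used berry DNA per its source label, although its growth and treatment fields speak of leaf. NAC33 has lists labelled 500 and 1000 on leaf DNA and 500 on berry DNA, and NAC03 has a list labelled 500 on leaf DNA. The labels give the numbers 500 and 1000 without a unit. The CARPO and NAC33 lists labelled 500 on leaf DNA were each called from 2 libraries together, whereas every other list came from 1 library, so the title number and the number of libraries cannot be told apart. There was 1 list per condition and no list per replicate. The lists hold no read totals, and the sequencing depth is unknown. The 3 libraries with HALO-GST, a tag control without a transcription factor, were not analysed here. The genome build is not given in the sources used here, and no genome or annotation of the coordinates' build was at hand. Sites are therefore given by deposited position, with no gene and no sequence.

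Of the 14344 CARPO events labelled 500 on the 19 numbered chromosomes, 3519 (24.5%) had a NAC33 or NAC03 event within 100 bp. The 6490 CARPO-only sites absent at 1000 made up 45.2% of the 14344 events and 60.0% of the CARPO-only sites. The recurring CARPO-only sites made up 30.2% of the 14344. These shares follow from the rule and are a description.

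The sites absent at 1000 were mostly weak events of their list. Event strength is the authors' value in the deposited list and is compared here only within the CARPO list labelled 500. It had a median of 23.4 in the sites absent at 1000, with 10th and 90th percentiles of 16.9 and 36, against a median of 35 in the recurring sites, with percentiles of 21 and 64. The median over all 14344 events was 29. The median percentile of strength within the list was 30.5 for the sites absent at 1000 (95% interval of the median 28.8 to 32.5), against 64.0 for the recurring sites (62.9 to 65.8). The groups overlapped widely, since both started at a strength of 15, the lowest in the list, and reached 4413.5 in the sites absent at 1000 and 3339.9 in the recurring sites.

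The deposited significance followed the same order. The median −log10 q-value was 3.04 in the sites absent at 1000 and 5.25 in the recurring sites. Of the sites absent at 1000, 3164 (48.8%) had a −log10 q-value under 3, against 649 (15.0%) of the recurring sites and 29.1% of all 14344 events. A −log10 q-value of at least 4 was reached by 1699 sites absent at 1000 (26.2%) and by 2979 recurring sites (68.7%), where 52.2% of all 14344 events reached it. Strength and significance come from a list the rule used, so these values are a description and carry no test.

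The list was divided into 5 strength classes of about equal size. The weakest class ran from 15 to 20.8 and held 2227 of the sites absent at 1000 (34.3%), against 373 of the recurring sites (8.60%). The strongest class ran from 47.2 to 11804.7 and held 147 of the sites absent at 1000 (2.27%), against 1047 of the recurring sites (24.2%). Among CARPO-only sites, the share absent at 1000 was 85.7% in the weakest class, 74.8% and 61.0% in the next classes up, then 36.8%, and 12.3% in the strongest.

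**Figure D1:**
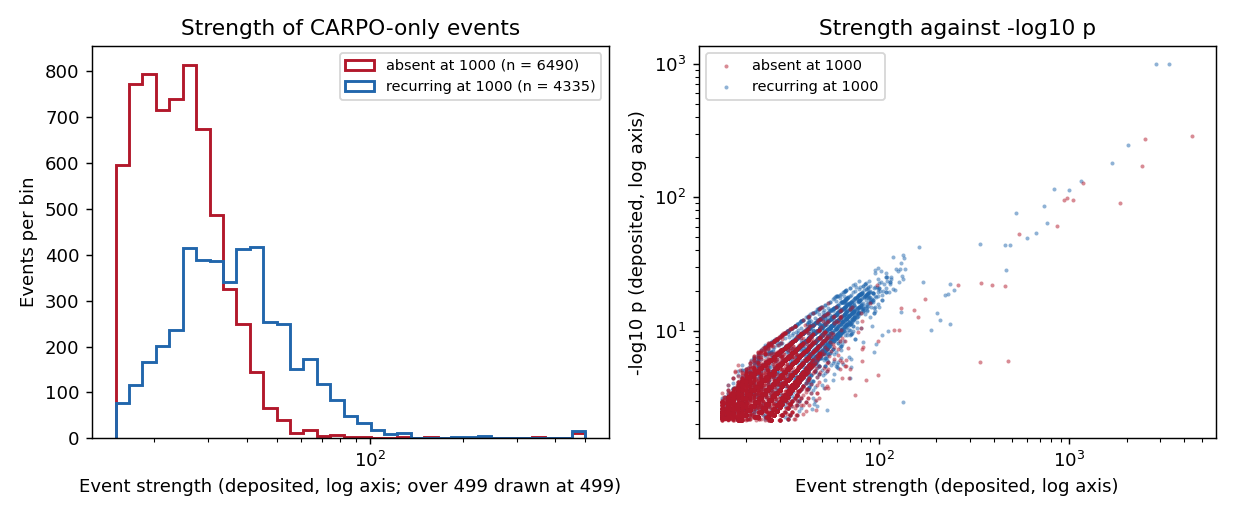
Left, number of CARPO-only sites by event strength in the leaf list of CARPO labelled 500 (log axis), for the 6490 sites absent at 1000 (red) and the 4335 recurring sites (blue). Right, strength of each site against its −log10 p-value (both log axes); the sites absent at 1000 pile up at the weak end, with a median of 23.4 against 35, and a few reach strengths over 1000.

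The 3 lists that the rule did not use allow a further description of the sites, namely CARPO on berry DNA, NAC33 labelled 1000 on leaf DNA and NAC33 on berry DNA. Each shares its factor with a list the rule used, so they are not independent of the rule. In the CARPO berry list, 316 of the 6490 sites absent at 1000 had an event within 100 bp (4.87%, exact 95% interval 4.36% to 5.42%). Of the 4335 recurring sites, 1253 had such a partner (28.9%, 27.6% to 30.3%). Over all 14344 events the share was 22.5%. The sites absent at 1000 thus stood 24.0 percentage points below the recurring sites (difference -24.0, 95% Newcombe interval -25.5 to -22.6). The intervals treat events as independent draws and cover counting error only, and with 1 list per condition no test across replicates was possible. The share depends on the deposited threshold: it was 10.2% with a −log10 q-value of at least 4 in the CARPO list labelled 500, 8.82% with that list shortened to the length of the list labelled 1000, and 1.62% with the stricter q-value in every list. Under the last of these the difference was -14.4 points, and within strength classes it was -9.32 points.

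The gap in berry recovery was present in each of the 5 strength classes. In the strongest class 35 of 147 sites absent at 1000 had a CARPO berry partner (23.8%), against 579 of 1047 recurring sites (55.3%), a difference of -31.5 points (95% interval -38.3 to -23.4), and 66.9% of all events of the class had one. The next classes down had 12.4% against 29.7% (24.99% of all events), 5.97% against 17.4% (11.2%), and 3.43% against 11.8% (6.24%). In the weakest class 1.44% of the sites absent at 1000 and 9.65% of the recurring sites had a berry partner, a difference of -8.21 points (-11.7 to -5.55), and 3.00% of all events of the class had one. Averaged over the classes with equal weight, the difference was -15.3 points (95% interval -17.3 to -13.4), smaller in size than the -24.0 points without classes. The classes matched strength only in part. Median strength was 54.1 in sites absent at 1000 and 60.8 in recurring sites of the strongest class, 37 and 39 in the next, and 18 in both groups of the weakest. Median −log10 p-values were 8.83 and 11.8 in the strongest class, and 2.66 and 3.03 in the weakest. The berry share in the strongest class was lower in the sites absent at 1000 than the 29.7% of recurring sites in the class below, although the interval of the first, 17.2% to 31.5%, includes that value.

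The partners themselves were also weaker in the berry list. The berry partner of a site absent at 1000 had a median percentile of berry event strength of 26.7, against 48.9 for the partners of recurring sites. Among berry partners, 55 (17.4%) lay above the median of the berry list for sites absent at 1000, 560 (44.7%) for recurring sites and 54.4% for all events. Within the sites absent at 1000, those with a berry partner had a median strength of 31 in the leaf list and those without had 23. The same order held in recurring sites, with 45.8 and 32, and over all events, with 54 and 26. Where a berry partner existed, it lay close, at a median distance of 10.5 bp for sites absent at 1000 and 6 bp for recurring sites. A distance of exactly 1 bp was found for 92 partners of sites absent at 1000 (29.1%) and for 434 partners of recurring sites (34.6%), against 40.7% of partners over all events.

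**Figure D2:**
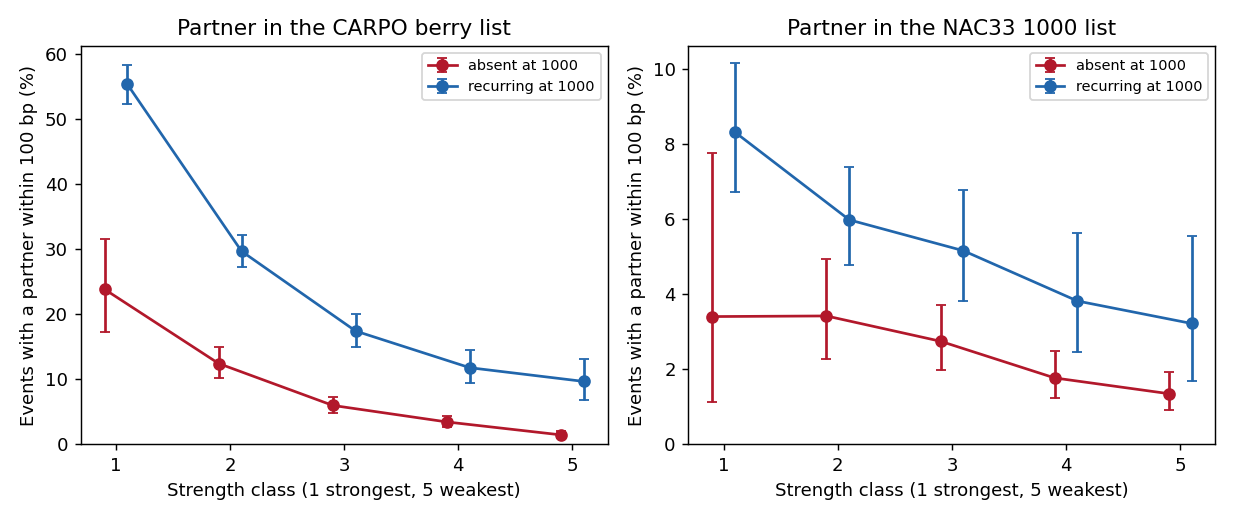
Share of CARPO-only sites with an event within 100 bp in the CARPO berry list (left) and in the NAC33 list labelled 1000 (right), by strength class in the CARPO list labelled 500, with exact 95% intervals as bars. Sites absent at 1000 (red) lie below recurring sites (blue) in each class, with 23.8% against 55.3% in the strongest class for the berry list.

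NAC33 labelled 1000 on leaf DNA gave a smaller number of partners. Here 135 sites absent at 1000 had one (2.08%, 95% interval 1.75% to 2.46%), against 252 recurring sites (5.81%, 5.14% to 6.55%) and 10.6% of all 14344 events. Sites with a partner in the NAC33 list labelled 500 had been removed from both groups by the rule, so the share over all events is not on the same footing. The difference was -3.73 points (95% interval -4.54 to -2.97). It was negative in each strength class, from -4.91 points in the strongest class to -1.87 in the weakest (95% interval -4.23 to -0.389), with intervals that left out 0. The NAC33 partners were of like rank in both groups, with a median percentile of 43.1 in the NAC33 list for the sites absent at 1000 and also 43.1 for the recurring sites. Their median distance was 16 bp for sites absent at 1000 and 13 bp for recurring sites.

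NAC33 on berry DNA, the shortest list with 731 events, had a partner for 13 sites absent at 1000 (0.200%, 95% interval 0.107% to 0.342%) and for 10 recurring sites (0.231%, 0.111% to 0.424%), against 1.42% of all 14344 events. The difference was -0.0304 points with an interval from -0.241 to 0.147, so none was detectable at these counts.

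In the 3 lists the rule did not use, 6037 of the 6490 sites absent at 1000 (93.0%, 95% interval 92.4% to 93.6%) had no partner, against 2933 recurring sites (67.7%, 66.2% to 69.1%) and 72.0% of all 14344 events. Since the rule had already removed partners in the 3 lists it used, these 6037 sites had no partner in any of the 6 other lists. They are 42.1% of the 14344 events and, by the same construction, the only ones without any partner. Among these 3 lists, a CARPO berry partner alone was found for 311 sites absent at 1000 (4.79%), against 1148 recurring sites (26.5%). A NAC33 partner labelled 1000 alone was found for 124 (1.91%), against 142 recurring sites (3.28%). A NAC33 berry partner alone was found for 7 sites absent at 1000 (0.108%) and 2 recurring sites (0.0461%). Partners in both the CARPO berry list and the NAC33 list labelled 1000 were found for 5 sites absent at 1000 (0.0770%), against 105 recurring sites (2.42%). Both NAC33 lists had a partner for 6 sites absent at 1000 (0.0924%) and for 8 recurring sites (0.185%). These combinations were not counted over all 14344 events.

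The reverse case was the 2130 CARPO events labelled 1000 that had no CARPO event labelled 500 within 100 bp. These too were weak in their own list, with a median strength of 17.5 against 26 for all events of that list on numbered chromosomes. A CARPO berry partner was found for 125 of them (5.87%, 95% interval 4.91% to 6.95%), where the sites absent at 1000 had 4.87% (4.36% to 5.42%). Events with NAC33 or NAC03 partners had not been removed from this set, and its strengths belong to another list. The berry share over all CARPO events labelled 1000 was not counted. The 5.87% thus has no share of its own list beside it, and likeness of these sets was not tested.

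Absence at 1000 means that no listed event lay within 100 bp, and the distances show where that limit fell. The nearest CARPO event labelled 1000 lay at a median of 14614.5 bp from the sites absent at 1000, with quartiles of 4987 bp and 34502.2 bp. There were 225 sites (3.47%) with such an event between the limit and 250 bp, and 537 (8.27%) with one within 1000 bp. The counts showed no break at the limit, with 43 CARPO-only sites at 101 to 110 bp, just inside the set, and 52 at 91 to 100 bp, just outside it. They fell to 9 at 191 to 200 bp and to 3 at 241 to 250 bp.

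Individual sites were named by nearness to the limit, and sites at equal distance were taken by strength, so weaker ones are left out. Just inside, at 101 bp from a CARPO event labelled 1000, were sites on chromosome 13 at 4341024 (strength 42), chromosome 18 at 30519552 (strength 34) and chromosome 7 at 20645820 (strength 32.7). Just outside, at 100 bp, were sites on chromosome 12 at 9751837 (strength 49), chromosome 8 at 276696 (strength 38.3) and chromosome 11 at 4036448 (strength 32.3). The strengths of the named sites overlapped across the limit. None of these 6 had a CARPO berry partner, where 4.87% of all sites absent at 1000 and 28.9% of recurring sites had one. A weaker site absent at 1000, also at 101 bp (strength 31), had a CARPO berry event at 20 bp. The 6 named sites therefore give no share for sites at the limit.

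Other lists were mostly far away. The nearest event lay at a median of 23529 bp for NAC33 labelled 500 and 33957.5 bp for NAC03, and within 250 bp for 110 sites (1.69%) and 83 sites (1.28%). Such distances were not particular to the set. NAC33 labelled 500 lay at 10001 to 100000 bp for 4161 of 6490 sites absent at 1000 and for 2788 of 4335 recurring sites. For NAC03 these counts were 3723 and 2500. For the CARPO berry list, on which the rule set no limit, the median was 37507.5 bp, with 377 sites (5.81%) inside 250 bp, which include the 316 partners. Of the recurring sites, 28.9% had a CARPO berry event within 100 bp alone.

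**Figure D3:**
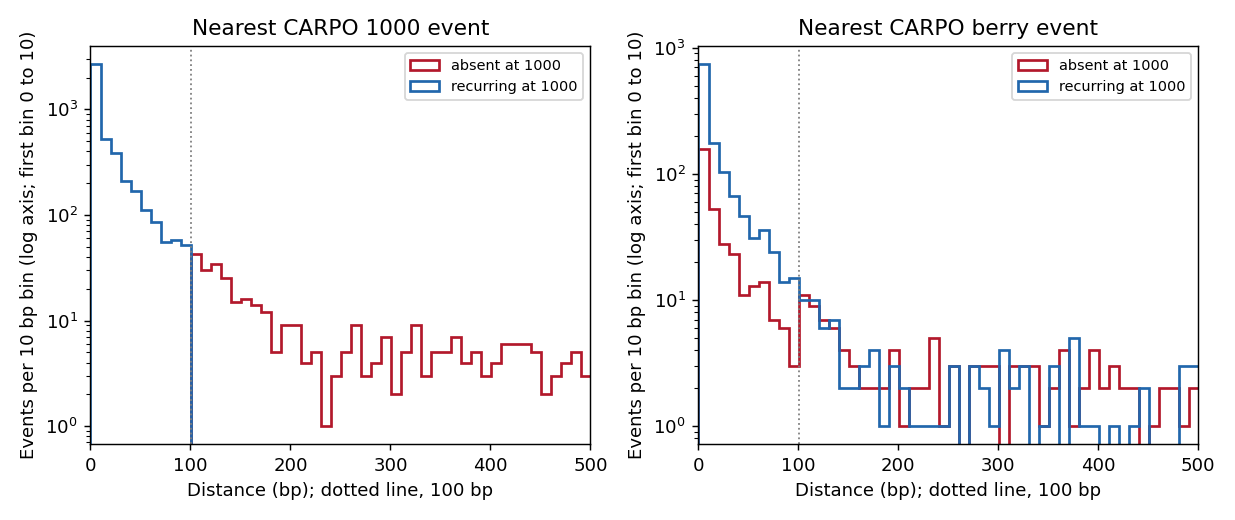
Number of CARPO-only sites by distance to the nearest CARPO event labelled 1000 (left) and the nearest CARPO berry event (right), in bins of 10 bp with a log count axis, for sites absent at 1000 (red) and recurring sites (blue); the dotted line marks 100 bp. On the left the rule divides the groups at the line, and on the right, where the rule played no part, both groups peak at short distances, with 316 and 1253 sites inside 100 bp.

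Close neighbours in the same list were fewer for sites absent at 1000 than for recurring sites, and nearly all of that gap lay at distances the rule affects. Another CARPO event labelled 500 lay within 500 bp of 453 of them (6.98%, 95% interval 6.37% to 7.63%), against 538 recurring sites (12.4%, 11.4% to 13.4%) and 11.5% of all 14344 events. The rule affects this count up to 200 bp, because events that close can share a CARPO partner labelled 1000, which takes them out of the set. Within 100 bp there were 14 sites absent at 1000 and 109 recurring sites. From 201 to 500 bp, out of reach of that effect, the nearest neighbour was found for 316 sites absent at 1000 (4.87%, 95% interval 4.36% to 5.42%), against 227 recurring sites (5.24%, 4.59% to 5.94%) and 5.66% of all events, and the intervals overlapped.

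The kind of neighbour within 500 bp is open to the same effect and is given as a description. Of the 453 sites absent at 1000 with a neighbour, 219 (48.3%) had another site absent at 1000 as the nearest, 111 (24.5%) had a recurring site and 123 (27.2%) had a site with a NAC33 or NAC03 partner. Of the 538 recurring sites with a neighbour, 110 (20.4%) had a site absent at 1000 and 290 (53.9%) had another recurring site. Of all 1648 events with a neighbour, 27.2% had a site absent at 1000, 32.8% a recurring site and 40.0% a site with a NAC33 or NAC03 partner. In the strongest class a neighbour within 500 bp was found for 24 of 147 sites absent at 1000 (16.3%, 95% interval 10.8% to 23.3%), 13.9% of recurring sites (11.9% to 16.2%) and 17.0% of all events. In the weakest class the shares were 8.04% for sites absent at 1000, 20.4% for recurring sites and 10.5% for all events.

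Although the set as a whole was weak, it held some of the strongest CARPO events. Of the strongest 100 events on the numbered chromosomes, 15 were sites absent at 1000 and 16 were recurring CARPO-only sites. Over all 14344 events these groups made up 45.2% and 30.2%, so both were scarcer among the strongest 100 than in the list. The rest of the 100 had a NAC33 or NAC03 partner. The strongest site absent at 1000 lay on chromosome 9 at 21158833, in the interval 21158733 to 21158933, and ranked 7 in the whole CARPO list with a strength of 4413.5. Next to it lay the sites that followed it in strength, at 21158735 with a strength of 2484.6 and at 21158565 with a strength of 2418.8. These 3 sites spanned 268 bp, were the only CARPO events labelled 500 there, and had no partner in any other list. The nearest event of any other list was a NAC33 event labelled 500 at 8646 bp from the strongest of them, and the nearest CARPO event labelled 1000 was 12871 bp away.

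The next site, on chromosome 5 at 11512198, had a strength of 1835 and ranked 25. It had no CARPO berry event within 100 bp, but NAC33 on berry DNA had an event 92 bp away with a strength of 1592.1, rank 2 in that list, and a −log10 q-value of 5.23. A second CARPO event labelled 500 lay 261 bp from this site, and the nearest NAC03, CARPO berry and CARPO labelled 1000 events lay at 261, 258 and 264 bp.

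The sites on chromosome 3 at 13363751 (strength 1177.2, rank 36), chromosome 1 at 15388859 (strength 977.4, rank 40) and chromosome 16 at 3336375 (strength 937.5, rank 44) had no partner in any list. Their nearest CARPO events labelled 1000 were 27522, 15752 and 73834 bp away. Only the site on chromosome 7 at 26002783 among the strongest 8 was found again with CARPO on berry DNA. It had a strength of 1044.4 and rank 38 in the leaf list, and its berry partner 8 bp away had a strength of 767.8, rank 31 in the berry list and a −log10 q-value of 42.9.

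The other sites absent at 1000 with a CARPO berry partner were weaker. The next in strength lay on chromosome 10 at 16235892, with a strength of 130 and rank 426 on leaf DNA, and had a berry event 3 bp away with a strength of 325 and rank 83. It was followed by chromosome 1 at 3636141 (strength 90, rank 892), whose berry partner lay 1 bp away at rank 666. This site had a CARPO event labelled 1000 at 116 bp, close to the limit. A site on chromosome 15 at 11528961 (strength 81) had a berry event at the same base, rank 183 in the berry list, and one on chromosome 12 at 23300120 (strength 80) had a berry event 17 bp away, rank 613.

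Berry recovery was also counted above limits of strength that were chosen after the values were seen. At a strength of at least 50, 28 of 111 sites absent at 1000 had a CARPO berry partner (25.2%, 95% interval 17.5% to 34.3%), against 522 of 924 recurring sites (56.5%, 53.2% to 59.7%) and 69.4% of all events that strong. At 100 or more, only 2 of 22 sites absent at 1000 had one (9.09%, 1.12% to 29.2%), against 52 of 67 recurring sites (77.6%, 65.8% to 86.9%) and 89.7% of all 631 events that strong. At 200 or more it was 1 of 16 sites absent at 1000 (6.25%, 0.158% to 30.2%) against 11 of 23 recurring sites (47.8%, 26.8% to 69.4%) and 78.4% of all events that strong. The intervals of the sites absent at 1000 overlap one another, so no order by strength can be read from them, and the shares of recurring sites and of all events were also lower at 200 than at 100. Of the 22 sites at 100 or more, 11 had another CARPO event within 500 bp, against 20 of the 67 recurring sites and 140 of all 631 events that strong.

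The −log10 p-value per unit of strength was compared above the same limits. At 50 or more its median was 0.129 in the sites absent at 1000, 0.189 in the recurring sites and 0.206 over all events. Median strengths there were 62, 63 and 71. At 100 or more, the median −log10 p-value per unit of strength was 0.0825 in the 22 sites absent at 1000, 0.177 in the 67 recurring sites and 0.223 over all 631 events. The groups differed in strength there, with medians of 467.8 in the sites absent at 1000, 129.8 in the recurring sites and 135.5 over all events. At 200 or more the ratio was 0.0710 in the sites absent at 1000, 0.0941 in the recurring sites and 0.171 over all events, so it was lower than at 100 in each. Median strengths at 200 or more were 897.7, 522 and 343, in the same order. In the weakest class the ratio was 0.152 for sites absent at 1000 and 0.163 for recurring sites. The part of strength in these differences was not tested. The deposited columns do not name what the p-value was computed against.

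A NAC33 partner labelled 1000 together with a partner in a berry list was found for 11 sites absent at 1000, the 5 and 6 given above beside 105 and 8 recurring sites. The strongest lay on chromosome 18 at 27811803, with a strength of 476.2 and rank 84 and a −log10 p-value of 5.95. It had a NAC33 event labelled 1000 at 60 bp, with strength 504.8, rank 20 and a −log10 q-value of 42.0, and a NAC33 berry event at 43 bp, with strength 396.6 and rank 19. The nearest CARPO berry event was 73114 bp away. The sites at 3636141 on chromosome 1 and 23300120 on chromosome 12, described above, had a NAC33 event labelled 1000 at 2 bp and 8 bp. On chromosome 18 at 31822770 (strength 47) there were NAC33 events labelled 1000 at 3 bp and on berry DNA at 7 bp. On chromosome 6 at 6318522 (strength 41.8) a CARPO berry event lay 2 bp away, with rank 3678 in its list, and a NAC33 event labelled 1000 lay 99 bp away.

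The sites were spread over all chromosomes. Each of the 19 chromosomes held between 222 sites (chromosome 15) and 541 sites (chromosome 18), with densities from 10.6 per Mb on chromosome 16 to 18.3 per Mb on chromosome 8. All CARPO events labelled 500 had their lowest and highest densities on the same chromosomes, 22.0 and 42.8 per Mb. Densities used the furthest event end seen on a chromosome as its length. As a share of all CARPO events labelled 500, the sites absent at 1000 ran from 40.8% on chromosome 10 (95% interval 37.1% to 44.6%) to 50.2% on chromosome 4 (46.7% to 53.8%). Median strength per chromosome stayed between 22 and 24.6. The share with a CARPO berry partner ran from 2.73% on chromosome 2 (1.11% to 5.55%) to 7.21% on chromosome 15 (4.17% to 11.4%), and these intervals overlapped. Chromosome 18, with the most sites, had 15 with a berry partner (2.77%, 1.56% to 4.53%). Berry partners were not counted over all CARPO events of each chromosome, so these shares cannot be called particular to the sites absent at 1000.

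**Figure D4:**
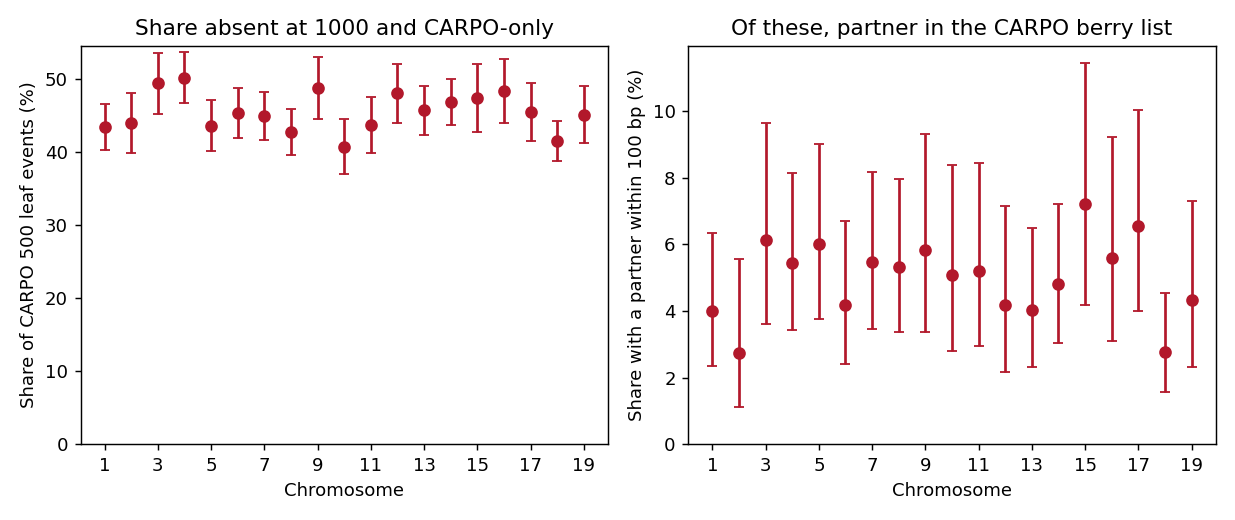
Left, sites absent at 1000 as a share of all CARPO events labelled 500 on each chromosome, with exact 95% intervals as bars. Right, the share of these sites with a CARPO berry event within 100 bp; the shares run from 40.8% to 50.2% on the left and from 2.73% to 7.21% on the right.

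In windows of 1 Mb, 467 of 468 held at least 1 site absent at 1000, and the median window held 13. The densest windows held 35 sites among 66 CARPO events on chromosome 1 (5000001 to 6000000), 35 among 64 on chromosome 8 (14000001 to 15000000) and 33 among 54 on chromosome 6 (6000001 to 7000000). The median strength of their sites absent at 1000 was 21, 26 and 28, against 23.4 over all 6490. A CARPO berry partner was found for 2, 3 and 4 of them, and berry partners were not counted over all events of a window.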

How the data were processed

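Binding was measured by DAP-seq in 12 samples, of which 7 event lists were used. Per the submitters' processing notes, fastp 0.21.0 and Bowtie2 2.0 were among the tools. GEM is named as the event caller by the deposited lists' names alone, and its version, control, filters and the genome build are not given in the sources used here. The lists have no header, decimal commas and intervals of 201 bp. The deposited score in column 5 is a straight-line rescaling of column 7 (largest residual 0.661) and was not used. Columns 7, 8 and 9 were read from their values as the authors' strength, −log10 p-value (capped at 999) and −log10 q-value. The lowest −log10 q-value of a list lay between 2 and 2.03.

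Event position was the start plus the offset, counted from 1, and a partner was an event on the same sequence within 100 bp. Shares carry exact Clopper-Pearson 95% intervals and differences Newcombe intervals. Events named are the strongest members of all, with a CARPO berry partner, with no partner, and with NAC33 labelled 1000 and berry partners, together with those at the distance limit and the densest windows. The members and these rules were chosen with earlier results of these data known. Alternatives were other partner distances, stricter q-values, a shortened CARPO list, chr00 kept in, ranking by p-value, other spacings and 10 strength classes. The partner search was tested on simulated data. Python 3.11.15, numpy 2.4.6, pandas 2.3.3, scipy 1.17.1 and matplotlib 3.10.9 were used. No gene, motif or sequence was analysed here.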

Additional observations from a re-analysis of the deposited data

How the results depend on the processing

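The number of sites absent at 1000 was 6490. It was 1699 with a −log10 q-value of at least 4 in the CARPO list labelled 500 and 3334 with that threshold in every list. It was 2563 with only as many of the strongest CARPO events labelled 500 as the list labelled 1000 holds. The CARPO list labelled 500 was shortened in each setting, and the threshold in every list shortened the partner lists as well. Under the same settings, in that order, the share with a CARPO berry partner was 10.2%, 1.62% and 8.82%, and the share with a CARPO neighbour within 500 bp was 4.83%, 5.25% and 4.33%. The mean difference in berry share within strength classes, sites absent at 1000 minus recurring sites, was -22.2, -9.32 and -20.2 points. The difference before the division into strength classes was -25.7 and -14.4 points under the q-value settings. The share with a NAC33 partner labelled 1000 was 2.81% in the shortened list, and that with a NAC33 berry partner 0.0600% with the threshold in every list. The median strength percentile was 23.8 with the threshold in the CARPO list and 27.3 in the shortened list. At a partner distance of 25 bp the percentile was 33.9, the differences in berry share were -21.6 points before and -12.6 points within classes, and the share with a close neighbour was 9.31%. That share was 8.57% at 50 bp, 5.45% at 250 bp and 5.76% with any overlap of intervals, and it was 2.93% for neighbours within 250 bp and 12.5% within 1000 bp. The other 50 of 77 recomputed values moved by less than their interval or, for the number of sites, by less than 1.5 times. No difference changed sign. The causes were not tested beyond the list lengths. No paired analysis was possible because the CARPO and NAC33 lists labelled 500 on leaf DNA were called on pooled replicates and every other list came from 1 library, which also kept single replicates from being left out. Unknown depth limits every absence, since an event below the threshold is not listed.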
